A study of Mus musculus with 5 samples.

Results

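Glycolysis and hypoxia response genes were followed in RNA sequencing of mouse microglia, the resident macrophages of the brain. The set holds 38 genes of glucose and lactate transport, glycolysis, the HIF pathway and its targets, out of 21983 genes in the deposited count table. Members were found by gene symbol alone, with no measured value in the rule, but the set was proposed with earlier results of these data known. Each of the 38 passed the filter on low counts, as did 12543 genes in all. The labels describe primary microglia from brain in 5 libraries. Of these, 2 carry the genotype Cx3cr1CreERT2 Ythdf2fl/fl and 3 the genotype Ythdf2fl/fl, so every library shares the floxed Ythdf2 alleles and only the first group has the Cre, a recombinase placed at the Cx3cr1 locus and active once tamoxifen is given. Cx3cr1 is expressed by microglia and by other macrophages and monocytes, so the Cre is not confined to 1 cell type. The sources used here do not give age, sex, strain, treatment or whether each library is a separate animal or culture, so the tests measure the spread between these libraries, which may be technical. Ythdf2 encodes a reader of N6-methyladenosine in mRNA, and the study asked which processes its loss affects in microglia.

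Glycolysis splits glucose into pyruvate, which either enters mitochondria or is reduced to lactate and exported. Macrophages, microglia included, raise glycolysis when activated or short of oxygen. The main switch is the hypoxia-inducible factor HIF, a dimer of an oxygen-sensitive alpha subunit (encoded by Hif1a or Epas1) and the constant partner ARNT. With oxygen present, the prolyl hydroxylases EGLN1 to EGLN3 mark the alpha subunit, VHL binds the mark, and the subunit is degraded. Much of this control acts on protein, which mRNA counts do not show.

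Library totals ran from 13947500 to 19577217 counts, and 1 count was worth 0.0540 to 0.0743 CPM (CPM, the usual scaling of counts to sequencing depth, is used for all levels and was computed on TMM-scaled library sizes). Every pair of libraries differed by more than counting noise (chi-square per degree of freedom between 53.4 and 272.5). Ythdf2 itself came to 104 and 127 CPM in the library labelled knockout 1 and the one labelled knockout 2, above the 57.0, 69.2 and 68.8 CPM of controls 1 to 3. It therefore goes against the label (edgeR log2 fold change 0.83 with SE 0.207, adjusted p = 0.431). The sources used here do not say which exons are floxed, and each direction given for a gene rests on the labels alone. Cx3cr1, whose locus carries the Cre, was at 337 and 97.7 CPM in the same libraries and at 682, 992 and 681 CPM in the controls. Of 12 microglia markers 11 were detected: Csf1r was at 2372 to 4220.4 CPM over the 5 libraries, Siglech at 0 to 1.20 CPM, and Trem2 was at 0 in each. The markers did not move together. P2ry12 (25.2 and 32.5 CPM against 9.24, 8.81 and 23.0 CPM) and Tmem119 (34.1 and 13.7 CPM against 11.1, 7.03 and 5.35 CPM) had both labelled knockouts above each control. Cx3cr1, Fcrls and Olfml3 were among those with both below, and the groups overlapped for 5 markers. The 12 markers summed to 3949 and 6470.1 CPM in the labelled knockouts and to 7548 to 7959 CPM in the controls, a sum made up mostly of Csf1r and C1qa, whose groups overlap. Where levels of 2 libraries are set against levels of 3, they are those of knockout 1 and knockout 2 and then of controls 1, 2 and 3, and fold changes are labelled knockout over control.

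The 250 bases before the annotated start were taken from RefSeq (GRCm38.p6) for 35 of the 38 members (not Epas1, Ndrg1 and Bnip3l), 1 of them, Ero1l, under its newer symbol. HIF is known to act on many of these genes, and the windows were searched for its core motif. The searched letters, ACGTG and GCGTG on both strands, are the core of the hypoxia response element that HIF binds. The palindrome CACGTG, which is also the E-box of other factors, holds ACGTG on both strands and was counted on each. Of 48 member windows 39 held at least 1 match, which is 81.3%, against 38.6% of all 32851 windows in the table. Some genes have several starts whose windows overlap, so windows are not independent. By gene, 31 of 35 members held a match in at least 1 window, against 11226 of 27025 genes. With ACGTG alone 24 of 48 member windows matched, against 16.6% of all windows. Both motifs hold the letters CG, and the compared windows were not matched for base composition or for expression of their genes. The part of either in these differences was not tested. With either motif a match was found for 10 of the 12 members whose labelled knockouts were below each control, for both members above that have a window, and for 19 of 21 others. A match describes letters and not a bound site. The 6 promoters shown belong to members whose groups did not overlap, 4 with 3 to 5 matches (Ldha, Bnip3, P4ha1 and Hif1a, lower in the labelled knockouts), 1 that was higher there (P4ha2) and 1 without a match (Tpi1). Capitals mark every match on either strand.
Ldha promoter (chr7:46845554-46845803, plus strand): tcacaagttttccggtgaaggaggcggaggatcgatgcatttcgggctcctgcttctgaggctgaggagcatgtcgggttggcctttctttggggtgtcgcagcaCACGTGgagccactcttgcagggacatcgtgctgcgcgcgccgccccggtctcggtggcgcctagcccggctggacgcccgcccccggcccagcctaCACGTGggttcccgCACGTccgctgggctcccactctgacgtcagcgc
Bnip3 promoter (chr7:138909507-138909756, minus strand): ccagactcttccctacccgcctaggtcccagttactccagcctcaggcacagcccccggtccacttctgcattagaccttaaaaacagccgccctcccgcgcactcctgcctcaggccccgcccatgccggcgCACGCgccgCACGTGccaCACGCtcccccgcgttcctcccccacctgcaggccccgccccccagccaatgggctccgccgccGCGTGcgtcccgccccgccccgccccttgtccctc
P4ha1 promoter (chr10:59323046-59323295, plus strand): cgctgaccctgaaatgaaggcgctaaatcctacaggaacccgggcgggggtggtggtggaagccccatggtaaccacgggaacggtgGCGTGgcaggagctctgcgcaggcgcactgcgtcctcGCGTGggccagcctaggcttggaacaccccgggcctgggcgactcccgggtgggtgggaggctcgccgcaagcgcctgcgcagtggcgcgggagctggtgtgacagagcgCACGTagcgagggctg
Hif1a promoter (chr12:73907617-73907866, plus strand): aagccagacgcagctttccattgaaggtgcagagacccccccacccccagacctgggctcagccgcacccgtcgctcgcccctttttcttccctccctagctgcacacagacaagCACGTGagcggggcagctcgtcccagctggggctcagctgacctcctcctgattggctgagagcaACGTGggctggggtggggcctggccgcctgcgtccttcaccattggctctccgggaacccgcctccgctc
P4ha2 promoter (chr11:54100674-54100923, plus strand): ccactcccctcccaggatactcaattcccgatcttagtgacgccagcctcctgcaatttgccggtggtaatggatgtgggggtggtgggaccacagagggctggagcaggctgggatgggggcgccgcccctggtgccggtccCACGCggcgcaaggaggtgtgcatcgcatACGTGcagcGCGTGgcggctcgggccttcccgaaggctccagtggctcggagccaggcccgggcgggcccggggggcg
Tpi1 promoter (chr6:124814159-124814408, minus strand): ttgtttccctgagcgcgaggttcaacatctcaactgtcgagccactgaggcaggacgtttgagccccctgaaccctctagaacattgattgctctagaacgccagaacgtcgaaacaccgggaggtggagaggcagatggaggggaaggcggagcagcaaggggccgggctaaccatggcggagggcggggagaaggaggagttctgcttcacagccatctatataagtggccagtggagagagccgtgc

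**Figure D1:**
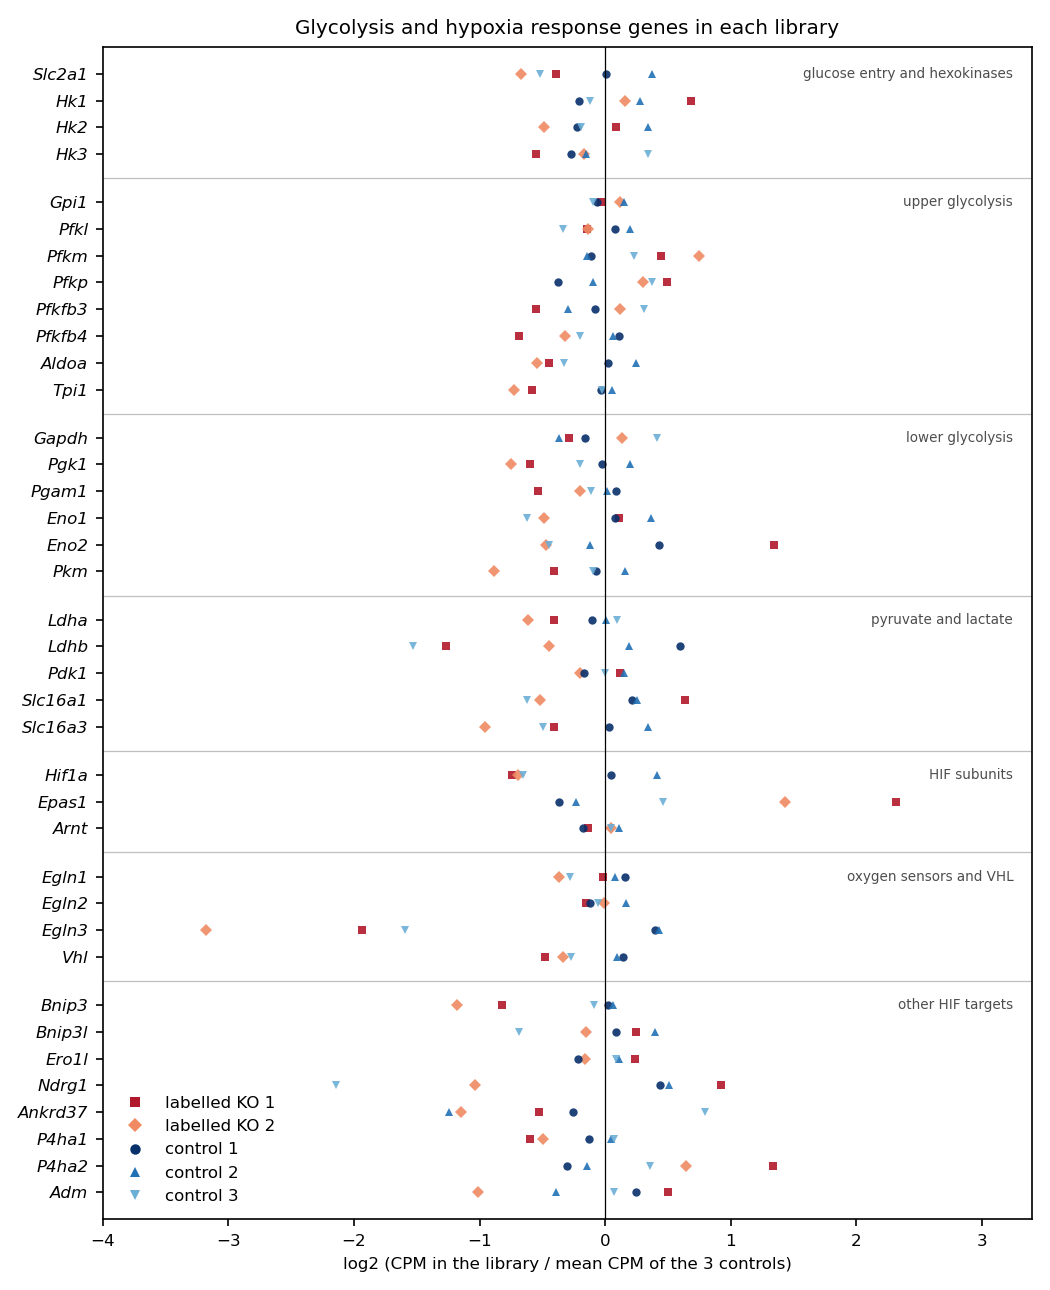
Level of each of the 38 members in each of the 5 libraries, as log2 of its CPM over the mean CPM of the 3 controls, grouped by role. For 12 members both labelled knockouts (square and diamond) sit left of each control, for Epas1, P4ha2 and Pfkm they sit right of each control, and for Hif1a control 3 sits beside them.

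More of the set had lower than higher levels in the labelled knockouts, and no member passed the main test. Because the set was chosen with earlier results of these data known, its counts and shares are descriptions only. Of the 38 members 27 had a negative log2 fold change, and the median was -0.17, against 48.9% negative and a median of 0.01 over all genes tested. Without the library labelled knockout 1 the members' median was -0.44. In edgeR's quasi-likelihood test with Benjamini-Hochberg adjustment over 12543 genes, 0 members were called, where the share over all genes was 0%; the smallest adjusted p among members was 0.325. At an unadjusted p under 0.05, edgeR listed 2 members higher (Epas1 and P4ha2), where 3.99% of all genes were higher, and 5 lower (Tpi1, Pgk1, Egln3, Bnip3 and P4ha1), where 2.69% were lower. By limma-voom 0 members were called. DESeq2 called 1 member higher, Epas1, with 1.08% of all genes called higher, and 1 lower, Egln3, with 0.635% called lower. DESeq2 called Egln3 alone without the library labelled knockout 1, Epas1 alone with knockout 2 left out, and 0 members without control 1 or without control 2. Both labelled knockouts exceeded each control for 3 members (Pfkm, Epas1 and P4ha2), which is 7.89% of the set beside 9.85% of all genes. They were below each control for 12 members, 31.6% of the set beside 10.4% of all genes. That number was 19 without the library labelled knockout 1, when 1 library is set against 3 and 3281 of all genes lie below. The number above was 10 without the library labelled knockout 2, with 4623 of all genes above, and 5 without control 2, which added Hk1 and Gpi1.

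The alpha subunits of HIF had fold changes of opposite sign. Epas1, which encodes the subunit HIF-2 alpha, gave 146 CPM in knockout 1 as labelled and 79.1 CPM in knockout 2, against 22.8, 25.0 and 40.3 CPM in controls 1 to 3. Each labelled knockout exceeded each control, and control 3 was the highest of the controls. The means were 113 ± 47.4 CPM (SD, n = 2) and 29.3 ± 9.55 CPM (SD, n = 3), and the log2 fold change was 1.94 (SE 0.375). In edgeR's quasi-likelihood test the adjusted p was 0.325, and in DESeq2 0.00287. The DESeq2 call did not hold with 1 of these left out: knockout 1 (adjusted p = 0.198), control 1 (0.113) or control 2 (0.0976). Epas1 lies on chromosome 17 at 86753700 to 86833410 (plus strand, GRCm38, GENCODE M21), with no exon of another gene over its own.

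Hif1a, encoding HIF-1 alpha, showed the opposite order, with 131 and 136 CPM in the labelled knockouts and 226, 293 and 139 CPM in the controls. The groups did not overlap, but control 3 stood within a few CPM of the labelled knockouts. The means were 133 ± 3.42 CPM (SD, n = 2) and 219 ± 77.1 CPM (SD, n = 3), and the log2 fold change was -0.72 (SE 0.344; edgeR adjusted p = 0.832). Without control 2 it was -0.46. Exons of Hif1a (chromosome 12, 73901375 to 73947530, plus strand) overlap Gm49321 on the same strand and Gm15283 on the other, so its counts can include reads of those genes. Arnt, the shared partner, gave 58.1 and 65.8 CPM against 56.3, 68.9 and 65.9 CPM, with the groups interleaved.

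**Figure D2:**
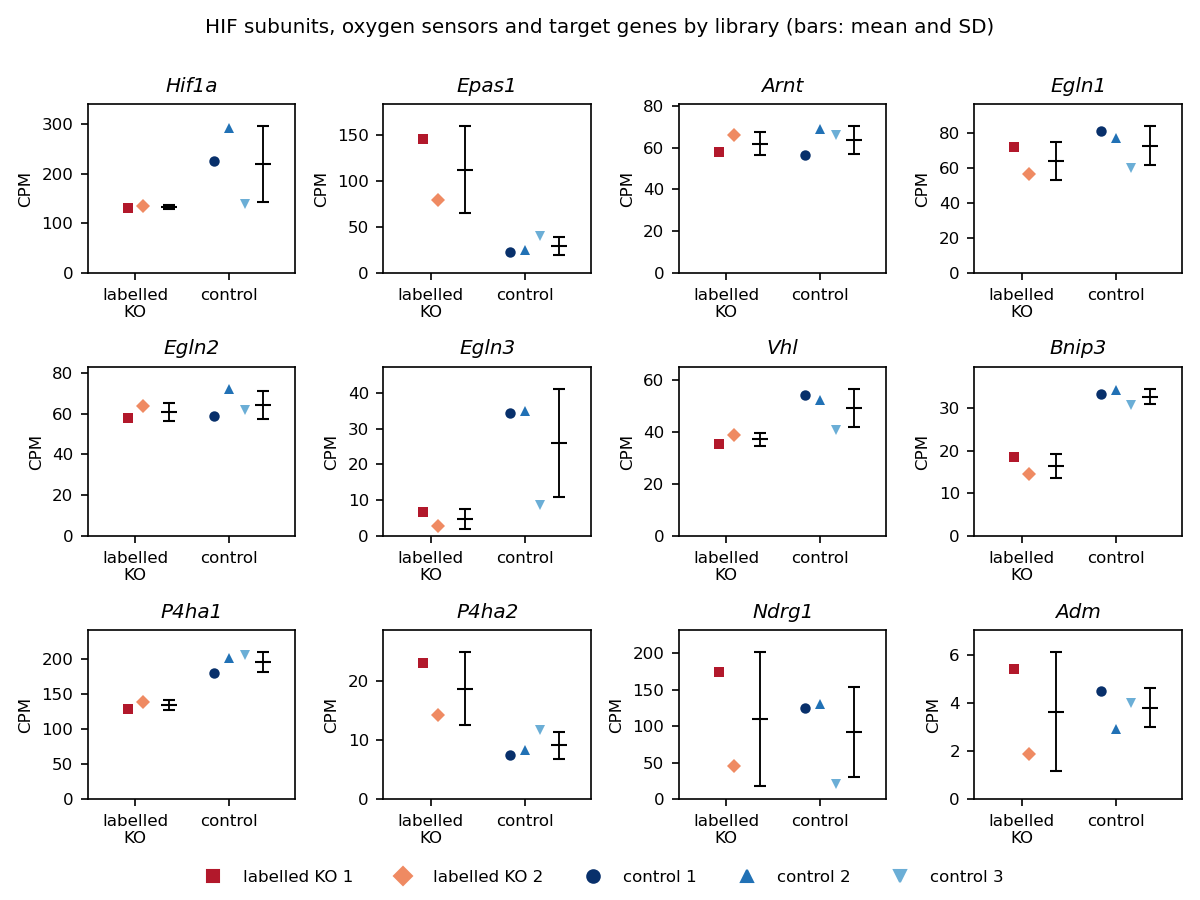
CPM of HIF subunits, oxygen sensors, VHL and target genes in each library, with the group mean and SD beside the points. Epas1 and P4ha2 are higher in both labelled knockouts than in any control, Hif1a, Egln3, Vhl, Bnip3 and P4ha1 are lower, and the groups overlap for Arnt, Egln1, Egln2, Ndrg1 and Adm.

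Per kilobase of exon, which allows levels of different genes to be compared, Epas1 made up 54.1% and 38.1% of the alpha subunit mRNA in the libraries labelled knockout 1 and knockout 2. In controls 1 to 3 its share was 9.60%, 8.25% and 23.4%. The mean share was 46.1% ± 11.3 (SD, n = 2) against 13.8% ± 8.39 (SD, n = 3), and the ranges did not overlap; no test was made of shares. Hif1a was therefore the more abundant transcript in the library labelled knockout 2 and in each control, at 23.0 to 49.6 CPM per kb, and Epas1 in the library labelled knockout 1, at 26.1 CPM per kb against 22.2 CPM per kb for Hif1a. With the longest transcript as length the Epas1 share in that library was 48.9%, so which subunit led there depends on the length used.

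Epas1 is known from endothelium, tissue macrophages and several epithelia. In bulk libraries a change in the share of cells of a type and a change in RNA per cell cannot be told apart. All 8 choroid plexus and ependymal markers were in the table. All but Foxj1 and Cfap126, so 6 of 8, had both labelled knockouts above each control. That is 75% of the list beside 9.85% of all genes. The list summed to 169 and 225 CPM against 11.9 to 30.7 CPM. Most of that sum was Ttr, at 101 and 203 CPM in the labelled knockouts; the other 5 of these markers were higher in knockout 1 than in knockout 2, as Epas1 was. Border macrophage markers summed to 486 and 1701 CPM against 329.6 to 685 CPM. The 8 endothelial markers summed to 138 and 97.1 CPM against 51.2 to 134 CPM. Cldn5, a tight-junction gene of brain endothelium, was at 0 in each library. The microglia marker Trem2 was at 0 in each library too, so a 0 here cannot be read as absence of the cells. Pecam1, at 0.0595 to 1.01 CPM, lay below each control in both labelled knockouts. Flt1 gave 71.9 and 10.6 CPM against 72.1, 106 and 29.7 CPM. Kdr was at 3.46 to 9.22 CPM and Cdh5 at 0.865 to 3.79 CPM, and for Flt1, Kdr and Cdh5 the groups overlapped. The endothelial marker Vwf stood above each control, at 55.6 and 81.8 CPM against 8.25 to 18.6 CPM. Slco1a4 and Ly6c1 did not pass the filter on low counts. Slco1a4 gave 1.13 and 0.270 CPM against 0 in each control, and Ly6c1 was at 0 to 0.126 CPM. The part of these cell types in the Epas1 values was not tested.

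**Figure D3:**
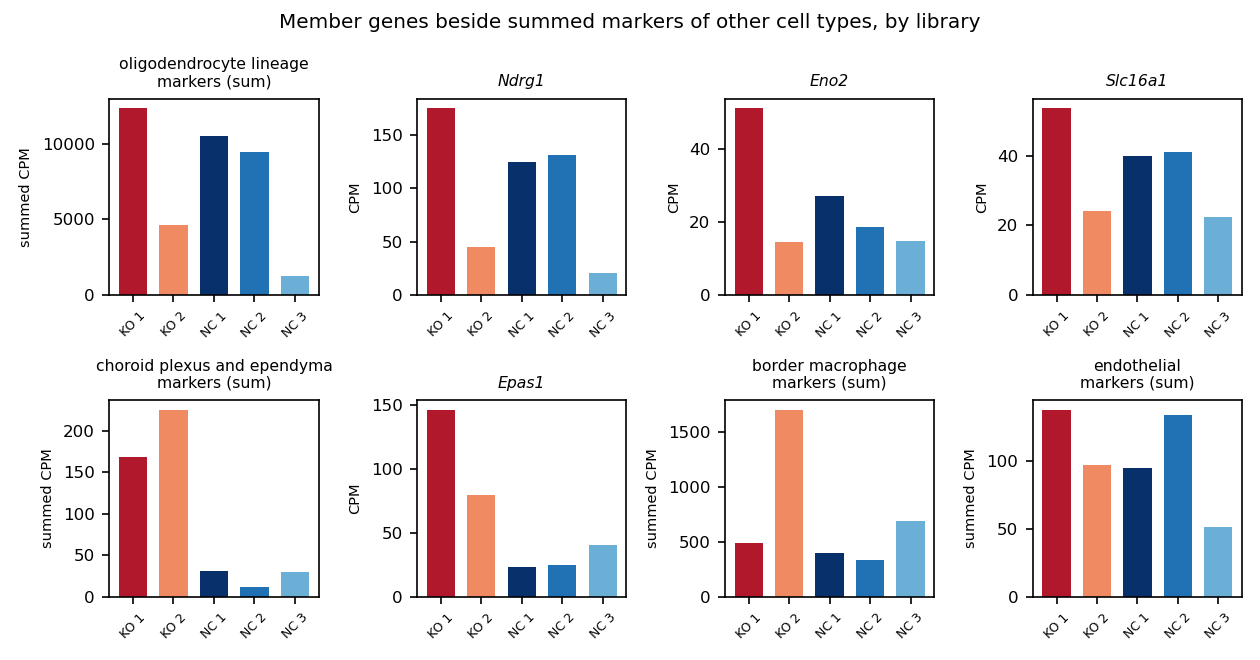
CPM of Ndrg1, Eno2, Slc16a1 and Epas1 beside the summed CPM of oligodendrocyte lineage, choroid plexus, border macrophage and endothelial markers, by library (KO, labelled knockout; NC, control; each bar is 1 library). Ndrg1 is lowest in control 3, the library with the lowest oligodendrocyte sum, and Epas1 and the choroid plexus sum are both higher in the labelled knockouts than in any control.

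Among the oxygen sensors, Egln3 stood apart from its paralogs. This gene, itself a classical HIF target, gave 6.78 and 2.86 CPM in the labelled knockouts and 34.3, 35.0 and 8.62 CPM in the controls. The groups did not overlap, and control 3 was nearer to the labelled knockouts than to the other controls. The means were 4.82 ± 2.77 CPM (SD, n = 2) and 26.0 ± 15.0 CPM (SD, n = 3), with a log2 fold change of -2.43 (SE 0.75), which was -3.21 without the library labelled knockout 1. Its adjusted p was 0.575 in edgeR and 0.0369 in DESeq2, and DESeq2 gave 0.193 with knockout 2 left out, 0.389 with control 1 left out and 0.421 with control 2 left out. The gene spans bases 54178981 to 54203860 of chromosome 12 (minus strand, GRCm38), with no overlapping exon of another gene. The 9 mural and fibroblast markers summed to 34.8 and 15.6 CPM in the labelled knockouts and to 128, 122 and 41.1 CPM in the controls, so control 3 was the lowest control there too. Of the 9, 7 were tested, and 5 of these (Pdgfrb, Col1a1, Col3a1, Dcn and Postn) lay below each control. That is 71.4% of those tested, beside 10.4% of all genes. Rgs5 and Lum were under 1 CPM in each library. The part of these cells in the Egln3 values was not tested.

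Egln1, the main oxygen sensor in most cells, gave 72.0 and 56.7 CPM against 81.5, 77.3 and 60.3 CPM. Egln2 gave 57.8 and 63.9 CPM against 59.0, 72.0 and 61.8 CPM. For both the groups overlapped. Per kilobase, Egln3 took 5.89% and 2.71% of the hydroxylase mRNA in the labelled knockouts and 22.8%, 21.8% and 7.69% in the controls, while Egln1 and Egln2 shared the rest. Vhl, whose product recognises the hydroxylated subunit, gave 35.2 and 38.9 CPM against 54.2, 52.3 and 40.7 CPM, below each control by a margin that was narrow for control 3 (log2 fold change -0.41, SE 0.224; edgeR adjusted p = 0.874).

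Of the 8 other HIF targets in the set 4 had a positive and 4 a negative log2 fold change. Bnip3, which drives removal of mitochondria under low oxygen (chromosome 7, 138890836 to 138909519, minus strand), gave 18.5 and 14.5 CPM against 33.3, 34.2 and 30.8 CPM. Here the controls were tight, at 32.8 ± 1.79 CPM (SD, n = 3), and the mean of the labelled knockouts was 16.5 ± 2.84 CPM (SD, n = 2). The log2 fold change was -0.99 (SE 0.236; edgeR adjusted p = 0.392, DESeq2 0.0749), and it lay between -1.21 and -0.83 with each library left out in turn. Of the 100-base windows of its transcript 33.5% also occur in other annotated genes, and an exon of Gm45507 overlaps it on the other strand. Its relative Bnip3l was at 55.2 to 117 CPM over the 5 libraries, with the groups interleaved.

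The collagen prolyl 4-hydroxylase subunits, which use the same chemistry as the oxygen sensors on a different substrate, diverged. P4ha1 gave 129 and 139 CPM against 179.6, 202 and 206 CPM (edgeR log2 fold change -0.55 with SE 0.197, adjusted p = 0.679). P4ha2 gave 23.1 and 14.3 CPM against 7.42, 8.30 and 11.7 CPM (edgeR log2 fold change 1.03 with SE 0.357, adjusted p = 0.665), and the fold change was 0.62 with knockout 1 left out. In both genes the groups were apart, in opposite directions, and neither transcript shares a 100-base window with another gene. The part of the mural and fibroblast cells, which are rich in collagen and whose marker sums are given with Egln3, was not tested.

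Ndrg1, a stress-responsive gene that is also abundant in myelinating glia, spread more within the groups than between them. It gave 175 and 44.9 CPM in the labelled knockouts and 125, 131 and 20.8 CPM in the controls (edgeR log2 fold change 0.25 with SE 0.870, adjusted p = 0.975). The 10 oligodendrocyte lineage markers summed to 12347 and 4598 CPM in the labelled knockouts and to 10520, 9438 and 1286 CPM in the controls, so Ndrg1 and the marker sum were highest in the library labelled knockout 1 and lowest in control 3. Eno2 and Slc16a1, chosen for this comparison after their values were seen, were also highest in the library labelled knockout 1. Eno2, the neuronal enolase, gave 51.2 and 14.5 CPM against 27.2, 18.6 and 14.8 CPM, so it was lowest in knockout 2. The 8 neuron markers summed to 155 and 39.3 CPM against 71.3, 67.8 and 14.3 CPM. That sum was mostly Tubb3, and 5 of the 8 were under 1 CPM in each library. Slc16a1, the lactate and pyruvate transporter MCT1 of oligodendrocytes and endothelium, gave 53.6 and 24.0 CPM against 39.9, 40.9 and 22.4 CPM. The part of oligodendrocyte or neuronal RNA in the values of Ndrg1, Eno2 and Slc16a1 was not tested. Ero1l, an oxidase of protein folding, was at 47.5 to 65.0 CPM. Adm, the vasodilator adrenomedullin, gave 5.41 and 1.89 CPM against 4.53, 2.91 and 4.01 CPM, and Ankrd37, at 0.507 to 2.08 CPM, was near the floor of the data.

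At the entry of glucose the groups overlapped for each gene. Slc2a1, the transporter GLUT1, gave 128 and 106 CPM against 169, 219 and 118 CPM (edgeR log2 fold change -0.53 with SE 0.310, adjusted p = 0.875). Hexokinases trap glucose in the cell, and Hk3, the form typical of myeloid cells, gave 503 and 654 CPM against 611, 662 and 935 CPM. Hk2, the inducible form, gave 165 and 111 CPM against 133, 197 and 136 CPM. Hk1, the housekeeping form, gave 112 and 78.1 CPM against 60.7, 84.9 and 64.5 CPM. Per kilobase Hk3 took 77.0% and 86.5% of hexokinase mRNA in the labelled knockouts and 80.7% to 89.3% in the controls, so the dominant form was the same in all 5 libraries.

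**Figure D4:**
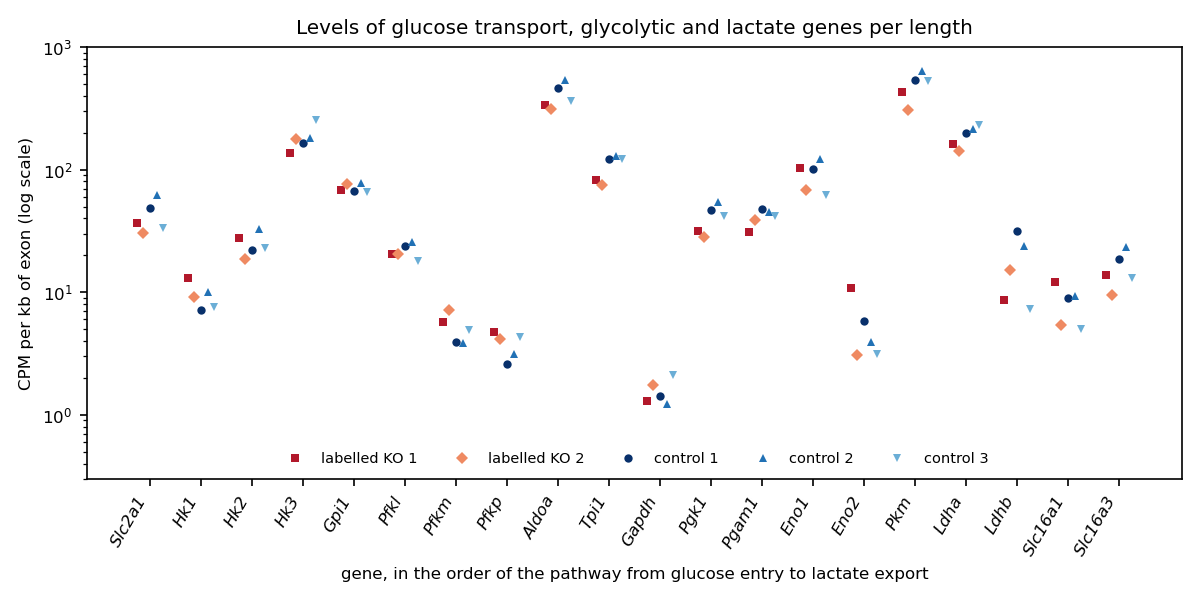
Levels per kilobase of exon (CPM per kb, log axis) of transport, glycolytic and lactate genes in each library, in pathway order. Pkm and Aldoa are the highest in each library, and Gapdh is the lowest, at 1.23 to 2.10 CPM per kb.

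In the upper part of glycolysis, Tpi1 and Aldoa were lower in both labelled knockouts than in any control. Tpi1, the triose isomerase, gave 227 and 207 CPM against 334, 354 and 335 CPM. The means were 217 ± 14.6 CPM (SD, n = 2) and 341 ± 10.9 CPM (SD, n = 3), with a log2 fold change of -0.65 (SE 0.202; edgeR adjusted p = 0.575), which stayed between -0.75 and -0.59 with each library left out. Aldoa, the aldolase, gave 973 and 911 CPM against 1345, 1573 and 1059 CPM (edgeR log2 fold change -0.49 with SE 0.287, adjusted p = 0.874). Gpi1, the isomerase before the first committed step, gave 442 and 491 CPM against 431, 502 and 422 CPM, with the groups overlapping.

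Phosphofructokinase makes the committed step. Its muscle form Pfkm gave 19.3 and 23.8 CPM against 13.1, 12.8 and 16.6 CPM, the only glycolytic enzyme of the set above each control in both labelled knockouts (log2 fold change 0.60, SE 0.266; edgeR adjusted p = 0.789). Its exons overlap Gm26513 on the same strand and Senp1 on the other. Pfkl, the liver form, was at 119 to 172 CPM and Pfkp, the platelet form, at 34.6 to 63.1 CPM, each with overlapping groups. Pfkl took 64.5% to 78.8% of the family's mRNA per kilobase. Of the bifunctional enzymes that set the activator fructose 2,6-bisphosphate, Pfkfb4 gave 38.6 and 49.9 CPM against 67.3, 65.1 and 54.2 CPM, below each control (edgeR log2 fold change -0.49 with SE 0.225, adjusted p = 0.813). Pfkfb3 gave 91.5 and 146 CPM against 127, 109 and 166 CPM, with the groups overlapping.

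Lower glycolysis held the most abundant member. Pkm, pyruvate kinase, gave 2140.1 and 1536 CPM against 2697, 3164 and 2651 CPM. The means were 1838 ± 427 CPM (SD, n = 2) and 2838 ± 284 CPM (SD, n = 3), and the log2 fold change was -0.63 (SE 0.312; edgeR adjusted p = 0.844). Leaving out knockout 1 moved it to -0.91 and leaving out knockout 2 to -0.41. Exons of Pkm overlap Gm49759 on the same strand, so its counts can include reads of that gene. Pgk1, phosphoglycerate kinase, gave 70.7 and 63.5 CPM against 105, 123 and 93.1 CPM (edgeR log2 fold change -0.67 with SE 0.214, adjusted p = 0.582). Pgam1, phosphoglycerate mutase, gave 61.4 and 77.3 CPM against 94.5, 90.0 and 82.4 CPM (edgeR log2 fold change -0.36 with SE 0.206, adjusted p = 0.874). In these 3 genes each library labelled knockout lay below each control. Eno1, the general enolase, gave 555 and 366 CPM against 543, 662 and 334 CPM, and did not separate the groups.

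Gapdh, usually among the most abundant mRNAs of a cell, gave 5.35 and 7.19 CPM against 5.85, 5.07 and 8.70 CPM. It is described here because of that low value. Of the 100-base windows of its longest coding transcript 78.0% also occur exactly in transcripts of 86 other annotated genes. For Pgk1 the share was 67.0%, for Eno1 59.0% and for Pgam1 39.7%, while 21 of the 38 members shared no such window. Reads from shared windows cannot be placed uniquely, and the sources used here do not say how the counting treated them, so the levels of these 4 genes are uncertain.

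At the end of the pathway, Ldha, the lactate dehydrogenase subunit that favours lactate, gave 538 and 466 CPM against 662, 715 and 763 CPM. Each library labelled knockout was below each control. The means were 502 ± 51.0 CPM (SD, n = 2) and 713 ± 50.6 CPM (SD, n = 3), with a log2 fold change of -0.51 (SE 0.233; edgeR adjusted p = 0.815). Ldhb, the other subunit, gave 13.6 and 24.0 CPM against 49.8, 37.4 and 11.4 CPM, with control 3 the lowest of all. Ldha took 86.3% to 97.0% of the mRNA of both subunits per kilobase. Pdk1, the kinase that closes the mitochondrial entry of pyruvate, gave 101 and 80.9 CPM against 82.9, 103 and 93.0 CPM, with the groups interleaved. Slc16a3, the lactate exporter MCT4, gave 73.8 and 50.3 CPM against 100.1, 124 and 69.2 CPM (edgeR log2 fold change -0.66 with SE 0.325, adjusted p = 0.842), with control 3 inside the range of the labelled knockouts.

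**Figure D5:**
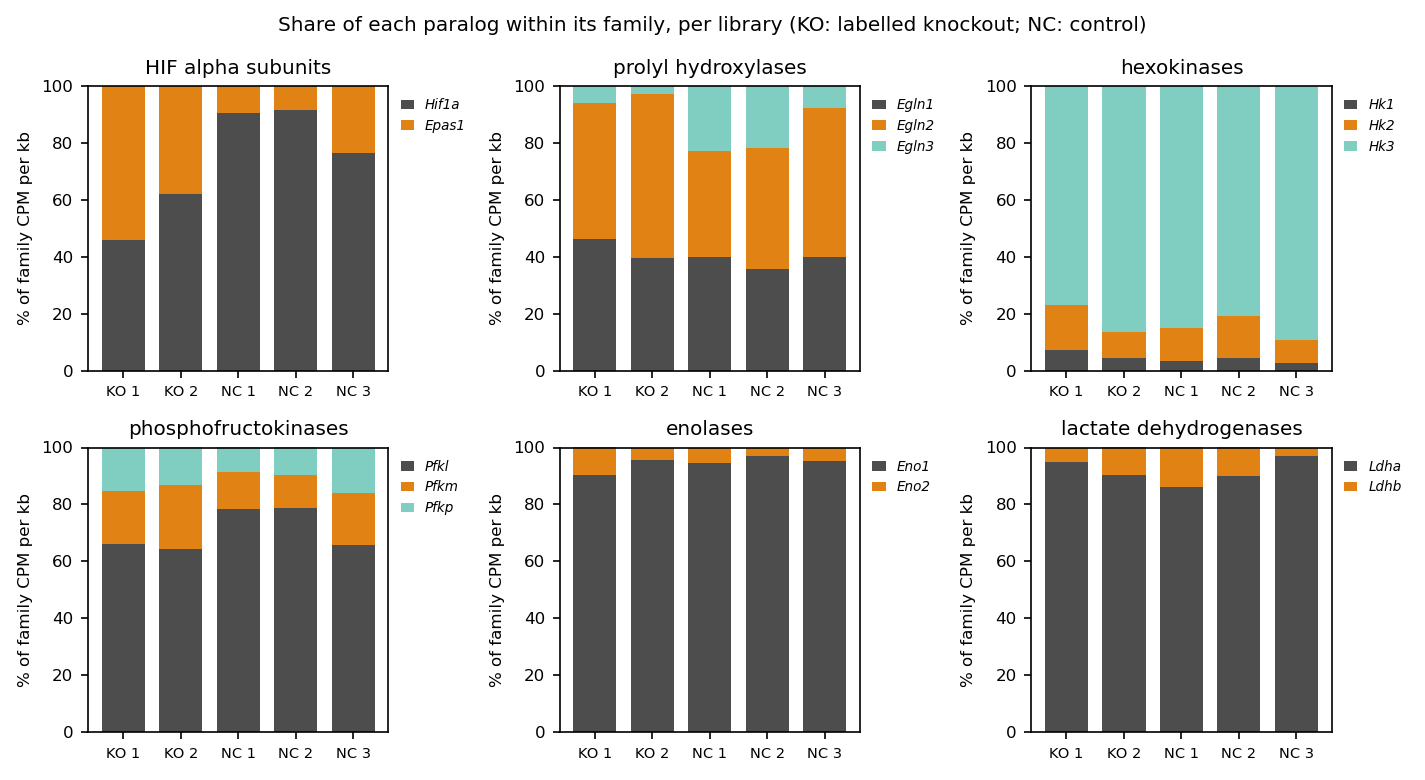
Share of each paralog in the summed CPM per kb of its family, in percent, for each library. Epas1 takes 38.1% to 54.1% of the alpha subunits in the labelled knockouts and 8.25% to 23.4% in the controls, Egln3 takes 2.71% to 5.89% and 7.69% to 22.8% of the hydroxylases, and Hk3, Eno1 and Ldha dominate their families in each library.

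The 23 genes of glucose and lactate handling had a median log2 fold change of -0.18, with 17 negative and 6 positive. Of them 7 (30.4%) lay below and 1 (4.35%) above each control, beside 10.4% and 9.85% of all genes. For the 15 genes of the HIF pathway and its targets the median was -0.08, with 5 (33.3%) below and 2 (13.3%) above. Other features differed between the libraries. Immediate early genes, which handling of cells induces, summed to 406 and 885 CPM in the labelled knockouts and to 1111 to 1560.0 CPM in the controls. Of 15 such genes 14 were tested, and 13 had a negative log2 fold change, with a median of -0.93. Below each control lay 9 (64.3%, beside 10.4% of all genes) and above each control 0. DESeq2 called 3 lower (Fos, Egr1 and Dusp1). Cycling-cell genes summed to 1851 and 564 CPM against 454 to 904 CPM, with the sums overlapping. Of the 14 cycling-cell genes 13 had a positive log2 fold change, with a median of 1.35, 5 (Mki67, Cenpf, Aspm, Ccnb1 and Ccnb2) lay above each control and 1 (Pcna) below, and DESeq2 called 3 higher (Mki67, Cenpf and Aspm). Of the 12 microglia markers, described with the depths, 4 lay below and 2 above each control. The part of any of these in the glycolytic values was not tested.

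Further genes of the pathway came from lists that leave out the 38 members, also chosen with earlier results of these data known. Of 28 other HIF targets 26 were tested, 20 had a negative log2 fold change, and 8 lay below and 2 (Bhlhe40 and Car12) above each control. That is 30.8% and 7.69% of the list, beside the 10.4% and 9.85% of all genes given above. Vegfa, which promotes vessel growth, gave 9.87 and 24.2 CPM against 124, 80.3 and 34.3 CPM. Ak4, a mitochondrial adenylate kinase, gave 1.78 and 0.973 CPM against 3.39 to 5.28 CPM. Car12, a membrane carbonic anhydrase of epithelia, went the other way, at 13.3 and 3.84 CPM against 0.251 to 0.669 CPM. DESeq2 gave Vegfa an adjusted p of 0.0334 and Car12 one of 2.89e-05, while the smallest edgeR adjusted p in the list was 0.289. By group, Car12 and the choroid plexus sum were both higher in the labelled knockouts, and Vegfa and the mural and fibroblast sum both lower. From knockout 1 to knockout 2 Vegfa rose and the mural and fibroblast sum fell, while Car12 fell and the choroid plexus sum rose. The latter sum is mostly Ttr, which rose from 101 to 203 CPM. Clic6, Kl, Kcnj13, Folr1 and Otx2, the other markers of that list above each control, fell as Car12 did. The part of these cell types was not tested.

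Of 15 further HIF regulators, such as the asparagine hydroxylase gene Hif1an, 14 were tested. Of these 0 lay above and 1 (Eloc, a partner of VHL) below each control. That is 0% and 7.14% of the list, beside 9.85% and 10.4% of all genes. None reached an unadjusted edgeR p under 0.05, where 3.99% of all genes were higher and 2.69% lower. Among 15 tested of 21 further glycolytic and transport genes, 4 lay above (Slc2a8, Aldoc, Pgam2 and Slc16a7) and 3 below (Slc2a3, Adpgk and Eno3). These are 26.7% and 20% of the list, beside 9.85% and 10.4% of all genes. Eloc, Bhlhe40, Slc2a8, Pgam2, Adpgk and Eno3 were named after their values were seen. Slc16a7, the transporter MCT2, gave 48.0 and 44.1 CPM against 26.3, 31.4 and 27.0 CPM, and Slc2a3, the transporter GLUT3, gave 2.08 and 0.649 CPM against 4.53, 4.12 and 7.28 CPM. Aldoc, the brain aldolase, gave 5.06 and 8.27 CPM against 2.39, 0.760 and 3.20 CPM. Genes of pyruvate entry into mitochondria (12 tested, median log2 fold change 0.07) and of the pentose phosphate branch (8 tested, median -0.05) had 0 members at an unadjusted edgeR p under 0.05. Over these 5 lists 0 of 75 genes tested were called by edgeR with adjustment over all genes.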

How the data were processed

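Per the labels' protocols, total RNA came from a Trizol extraction and a NEBNext Ultra kit gave the libraries. The authors deposited whole-number read counts per gene symbol for 5 libraries. Per the submitters' processing notes the tools were FastQC, STAR and HTSeq, with build mm10. The sources used here give no versions, annotation or strand setting. Columns were matched by description and groups by title. The title of the third control carries 2 numbers, and its library number was used.

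The comparison used edgeR 4.0.16 (R 4.3.3): filterByExpr, TMM factors, robust quasi-likelihood F test, two-sided, Benjamini-Hochberg over 12543 genes, threshold 0.05. SE is the log2 fold change over the square root of F. Alternatives were other scalings and filters, DESeq2 1.42.0, limma-voom (limma 3.58.1), legacy or non-robust estimation, a replicate block and each library left out; DESeq2 with libraries left out was added after seeing the data. Scripts were tested on simulated counts. Exon lengths, overlaps and shared 100-base windows came from GENCODE M21 (GRCm38), and promoters from RefSeq. Members and lists were chosen with earlier results of these data known. Values in every library were given for members whose groups did not overlap, with an unadjusted p under 0.05, among the 10 highest, or of preset interest; in each other list, up to 4 genes with the smallest unadjusted p under 0.05 were named. Some results are not reported here. Depth limits precision as the worth of 1 count shows.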

Additional observations from a re-analysis of the deposited data

How the results depend on the processing

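For 24 of 38 members the direction was the same under each of 15 alternatives (14 for Ankrd37, which the filter of 1 CPM in 3 libraries removed, and, for Epas1 and Egln3, under DESeq2 with each library left out), Epas1, Egln3, Hif1a, Bnip3, Tpi1, Pgk1, Pkm, Ldha, P4ha1 and P4ha2 among them. Over all genes, edgeR gave 0 calls under each scaling, filter, estimation and left-out library, and so did limma-voom with all libraries; DESeq2 called 232 genes, 2 of them members, and 171, 458, 87, 93 and 307 genes without the libraries labelled knockout 1 and knockout 2 and controls 1 to 3, with 1, 1, 0, 0 and 2 members called. No scaling, filter or estimation setting moved a count of members apart by over 1.5 times. With each library left out the members' median ranged from -0.44 to -0.17, the number of members below each control from 13 to 19 and above from 3 to 10. Fewer libraries separate more easily: over all genes 1557 to 4623 lay above and 1681 to 4722 below each control.

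Deviations from the group mean, compared between libraries that share a sample number, correlated at 0.148 for number 1 and -0.562 for number 2. With only 2 labelled knockouts, the deviations of 1 mirror those of the other, so these values are not independent. They cannot settle whether the numbers mark pairs. With the replicate block edgeR called 4 genes and 0 members, the members' median was -0.27, and the log2 fold change turned for Gapdh (0.19), Slc16a1 (-0.17), Bnip3l (-0.19) and Ndrg1 (-0.53); the cause was not tested.

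With a library left out the log2 fold change took both signs for 14 members, with ranges of -1.04 to 0.50 (Adm), -0.13 to 0.018 (Arnt), -0.19 to 0.31 (Bnip3l), -0.15 to 0.0087 (Egln2), -0.52 to 0.11 (Eno1), -0.50 to 1.34 (Eno2), -0.19 to 0.24 (Ero1l), -0.28 to 0.20 (Gapdh), -0.032 to 0.13 (Gpi1), -0.51 to 0.083 (Hk2), -1.07 to 0.92 (Ndrg1), -0.23 to 0.12 (Pdk1), -0.55 to 0.093 (Pfkfb3) and -0.55 to 0.64 (Slc16a1). It kept its sign but moved by over 1.5 times for Slc2a1 (-0.73 to -0.30), Slc16a3 (-0.99 to -0.41), Pgam1 (-0.54 to -0.23), P4ha2 (0.62 to 1.34), Hk1 (0.13 to 0.68), Hk3 (-0.55 to -0.14), Pfkl (-0.28 to -0.031), Pfkp (0.25 to 0.63), Ldhb (-1.27 to -0.38), Egln1 (-0.39 to -0.020), Ankrd37 (-1.15 to -0.14), Hif1a (-0.96 to -0.46) and Pkm (-0.91 to -0.41). With 1 library labelled knockout left, that library is assumed to vary like the controls. With the longest transcript as length, Eno2 took 2.87% in place of 4.45% of enolase mRNA in the controls, and Hk1 took 6.12% in place of 3.59% of hexokinase mRNA in the controls and 9.97% in place of 5.95% in the labelled knockouts; with ACGTG alone 50% of member promoter windows held the motif. Fits without a new scaling (DESeq2, limma-voom) gave no separate count of non-overlapping genes. Depth limits Ankrd37 most among the members.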
